A study of Homo sapiens with 6 samples.

Results

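The interferon regulatory factors (IRF) and the signal transducers and activators of transcription (STAT) are the transcription factors through which macrophages read interferons, cytokines and nucleic acid sensors. The 9 genes described here are IRF1, IRF2, IRF3, IRF4, IRF5, IRF7, IRF9, STAT2 and STAT3. They were taken by name from a table of 61267 genes, and all 9 were found and passed the filter on low counts. RNA was sequenced from cells labelled THP-1, a line from a human monocytic leukemia, which had been made adherent with the phorbol ester PMA (100 ng/ml, 48 h), a usual way to give it macrophage features. There were 6 libraries, 3 with the genotype NC and 3 with the genotype KD. Both groups had the same PMA treatment, the labels name no target or agent for KD, and the series title names METTL1, an enzyme that places 7-methylguanosine in RNA, and inflammation. All samples carry the label of this single line, and separate cultures are not named, so that the p-values rest on a spread between samples that may be technical.

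Background helps to order the genes. IRF3, IRF5 and IRF7 wait in the cytoplasm until kinases downstream of nucleic acid sensors and Toll-like receptors phosphorylate them, after which they switch on interferon and cytokine genes. Secreted type I interferon then acts through its receptor and JAK kinases to bring STAT2 and IRF9 together in the complex ISGF3, which binds the interferon-stimulated response element (ISRE). IRF1 is induced through the gamma-activated site (GAS) and drives genes of antigen presentation. IRF2 binds the same elements in target genes as the IRF1 protein does, and restrains those genes. IRF4 is a lineage factor of lymphocytes and of some macrophages, and STAT3 carries the signals of IL-6 and IL-10 family cytokines.

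The libraries held 37628972 to 42970216 counts. METTL1 had 596, 653 and 642 counts in NC and 567, 528 and 524 in KD, a log2 fold change of -0.10 ± 0.0765 (± SE, edgeR adjusted p = 0.216) on TMM, -0.29 (adjusted p = 0.00249) with library sizes alone and -1.35 on the leukocyte scale, as defined below. Whether the labels mark a lower METTL1 level thus changes with the scale, and KD below means the libraries labelled so. The median log2 fold change of all tested genes was -0.05, -0.23 and -1.29 on the same scales, so METTL1 lay near the bulk of genes on each. The 14 monocyte and macrophage markers summed to 1074 to 1140 CPM (counts scaled to a library of 1000000) in NC and 1841 to 1935 in KD, and none was at 0. A list of 25 genes that leukocytes do not usually express (neurofilaments, keratins, desmosome, embryonic and other genes) summed to 3318 to 3664 CPM in NC and 35.4 to 36.4 CPM in KD. Of these 25 genes 24 were lower in KD on TMM, with the smallest p for BEX2, IRS4 and DSP, and 9 had no count in any KD library. KRT19 was the gene not called there. This list, like the others here, was chosen with earlier results of these data known, so the number of its genes lower or at 0 is not a test. BEX2 had 6278 to 7404 counts in NC and 12 to 14 in KD, and IRS4, an adaptor of insulin signalling, had 6834 to 7417 in NC and 4 to 10 in KD. The 70 leukocyte-restricted genes went the other way, with 5586 to 5644 CPM in NC and 12461 to 12597 in KD, 66 of them called higher on TMM, with the smallest p for ARHGDIB, LCP2 and LST1. In the NC libraries these levels go against a label of monocytic cells alone, so that the identity or purity of those libraries is in doubt, and every comparison of KD with NC below rests on them. What these 2 lists contribute to the changes of the IRF and STAT genes was not tested, and in bulk samples fewer cells of a type and less RNA per cell cannot be told apart. Changes are therefore given on 3 scales of the libraries: TMM, which levels the bulk of all genes, library sizes alone, and TMM over the 70 leukocyte-restricted genes, called the leukocyte scale, which by construction holds the bulk of those 70 genes level.

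The RefSeq promoter table (GRCh38.p14) held 6 of the 9 genes, in 9 windows of 300 bases, 250 of them before the start of transcription. The GAS core TTCNNNGAA was found before the starts of IRF1 and IRF9. Both sequences are shown because only these genes of the 6 had a match to a searched motif. Capitals mark the GAS core and, in IRF1 only, an NF-kB site. Both run 5′ to 3′ on the gene's strand and stop at the next exon of the deposited gene model. For IRF9 that is the first exon, whereas the deposited IRF1 model has further exons upstream, so that the IRF1 sequence lies inside its span.

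IRF1: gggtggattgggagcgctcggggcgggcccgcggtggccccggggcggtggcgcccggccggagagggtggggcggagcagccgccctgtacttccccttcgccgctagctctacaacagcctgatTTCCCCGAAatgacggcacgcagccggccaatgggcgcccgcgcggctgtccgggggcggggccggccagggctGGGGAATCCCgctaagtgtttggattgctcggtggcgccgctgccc

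IRF9: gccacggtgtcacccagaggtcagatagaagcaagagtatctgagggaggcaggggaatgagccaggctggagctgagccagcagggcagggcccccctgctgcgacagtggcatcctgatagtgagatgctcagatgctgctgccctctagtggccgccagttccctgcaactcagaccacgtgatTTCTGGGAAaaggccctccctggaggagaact

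The IRF1 sequence lies at chr5:132490778-132491023 on the minus strand, with its GAS core 124 to 116 bases before the start and its NF-kB site 50 to 41 bases before it. The IRF9 sequence lies at chr14:24161015-24161233 on the plus strand, with its GAS core 63 to 55 bases before the start. On both strands, the GAS core was present in 7.66% of all 35116 windows, the NF-kB site in 11.3% and the ISRE core GAAANNGAAA in 3.57%. The windows of IRF4, IRF5, STAT2 and STAT3 held none of the 3 motifs, and no ISRE core was found in any of the 9 windows. A match describes the letters and not a bound site. IRF2, IRF3 and IRF7 were not in the table.

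The design asks how the level of each factor differed from NC in KD. On the TMM scale all 9 were higher in KD and 0 were lower (edgeR quasi-likelihood test, Benjamini-Hochberg adjusted p under 0.05), beside 36.2% of all 21905 tested genes called higher and 40.3% called lower. Library sizes alone gave 7 higher and 0 lower, beside 28.4% and 47.3% of all genes. The leukocyte scale gave 1 higher, 7 lower and IRF2 not called, beside 2.98% of all genes higher and 84.5% lower. The median log2 fold change of the 9 genes was 0.63 on TMM, 0.44 with library sizes alone and -0.62 on the leukocyte scale, against -0.05, -0.23 and -1.29 for all genes. Every KD library lay above every NC library in TMM-scaled CPM for 8 of the 9 genes, where 36.7% of all tested genes did so. A change of scale shifts every gene by nearly the same amount, so the order of the 9 changes is the same on each scale by construction. It ran from IRF4 through IRF2 and IRF9 down to IRF3.

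**Figure D1:**
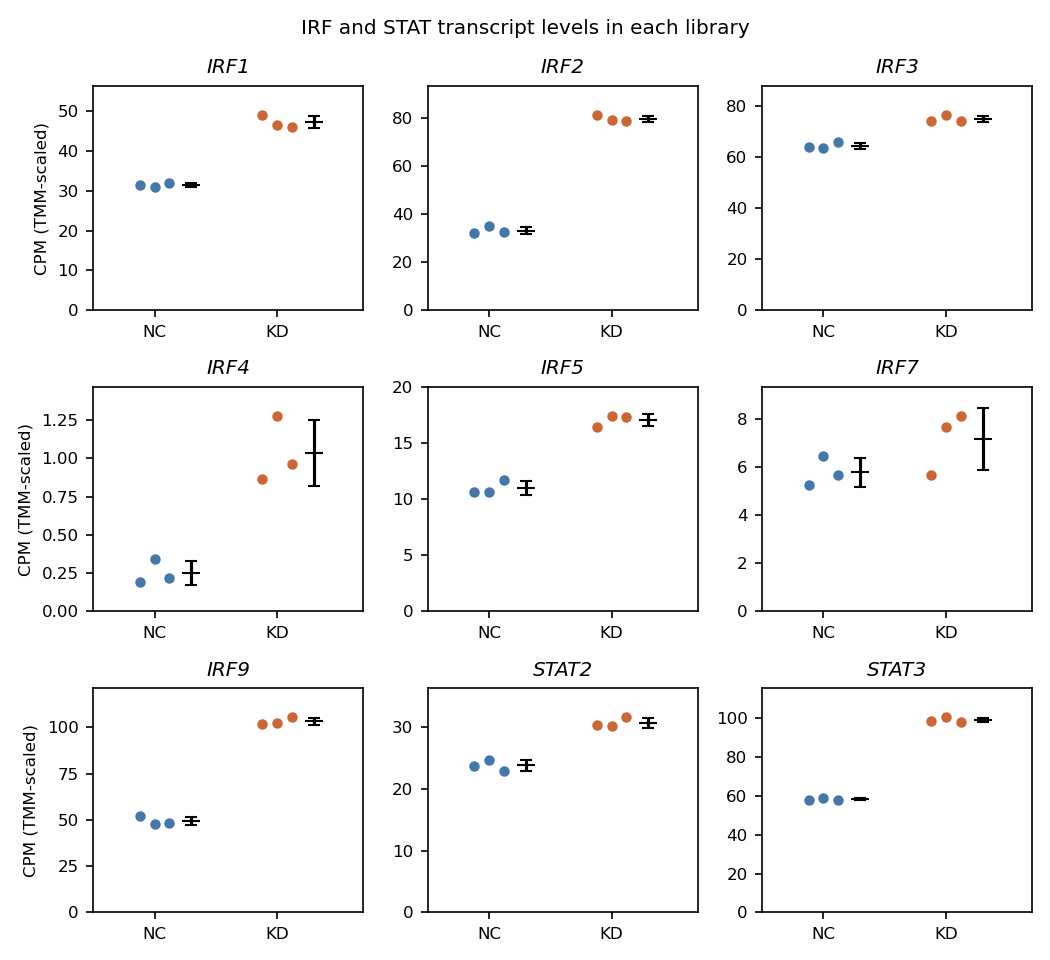
TMM-scaled CPM of each factor (vertical axes start at 0 and differ between panels) in the 3 NC and 3 KD libraries, as points, with the mean and SD beside them. The groups are apart with KD higher in every panel but that of IRF7, where they overlap. On the leukocyte scale IRF1, IRF3, IRF5, IRF7, IRF9, STAT2 and STAT3 are lower in KD, as are 84.5% of all tested genes.

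The ISGF3 subunits IRF9 and STAT2 differed in size of change. IRF9, the DNA-binding subunit (chromosome 14, 24161234 to 24168043, plus strand, GRCh38 as for all positions here), was at 51.8, 47.7 and 48.3 CPM in NC and 102, 103 and 105 CPM in KD. The KD libraries thus held roughly double the NC level, with no overlap. Its log2 fold change was 1.07 ± 0.044 (KD over NC, ± SE, n = 3 each, edgeR adjusted p = 5.09e-17), and -0.18 on the leukocyte scale (adjusted p = 0.00109). STAT2, which brings the activation domain (chromosome 12, 56341597 to 56360203, minus strand), was at 23.7, 24.7 and 22.9 CPM in NC and 30.4, 30.1 and 31.5 CPM in KD. The groups were apart by a smaller margin, and the log2 fold change was 0.37 ± 0.057 (edgeR adjusted p = 2.88e-06). It was 0.18 when only library sizes were used (adjusted p = 0.0129) and -0.88 on the leukocyte scale. The counts of IRF9 carry a limit: 27.2% of its exon bases also belong to other genes. Most of these, 1544 bases, lie on the same strand in ENSG00000259529, which held 2760 to 3013 counts in NC and 4951 to 5151 in KD and changed by a log2 of 0.92 ± 0.042. Reads there cannot be assigned to either gene. No exon base of STAT2 belongs to another gene in the table.

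The sensor-driven factors included the smallest 2 changes of the 9 on TMM, those of IRF3 and IRF7, beside a larger one of IRF5. IRF3, the first responder to viral nucleic acid (chromosome 19, 49659569 to 49665875, minus strand), was at 63.9, 63.6 and 65.7 CPM in NC and 74.1, 76.4 and 74.3 CPM in KD. Its groups did not overlap, and the log2 fold change was 0.22 ± 0.042 (edgeR adjusted p = 5.08e-05), but 0.03 with library sizes alone (adjusted p = 0.518) and -1.03 on the leukocyte scale. Of its exon bases 19.3% lie in BCL2L12 on the other strand, whose log2 fold change was 0.10, and the sources do not say whether counting used strand. IRF7, which amplifies the interferon response (chromosome 11, 612553 to 615983, minus strand), was at 5.27, 6.46 and 5.67 CPM in NC and 5.69, 7.70 and 8.13 CPM in KD. KD replicate 1 lay within the NC range, so that IRF7 is the one factor whose groups overlapped. Its log2 fold change of 0.31 ± 0.125 passed narrowly (edgeR adjusted p = 0.0292). Leaving out 1 library ended the call in 4 of 6 cases: NC replicate 1 (0.24, adjusted p = 0.136), NC replicate 3 (0.29, adjusted p = 0.0793), KD replicate 2 (0.26, adjusted p = 0.102) or KD replicate 3 (0.22, adjusted p = 0.154). It was also lost with library sizes alone (0.12, adjusted p = 0.412), and the value was -0.94 on the leukocyte scale. IRF5, a driver of inflammatory cytokine genes in macrophages (chromosome 7, 128937457 to 128950038, plus strand), was at 10.7, 10.7 and 11.8 CPM in NC and 16.4, 17.4 and 17.3 CPM in KD. The log2 fold change was 0.63 ± 0.075 (edgeR adjusted p = 4.86e-08) with no overlap, and -0.62 on the leukocyte scale.

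The activator IRF1 and its counterpart IRF2 moved by different amounts. IRF1 (chromosome 5, 132440440 to 132508719, minus strand) was at 31.4, 30.9 and 32.0 CPM in NC and 48.9, 46.5 and 46.0 CPM in KD. KD was above NC with no overlap and a log2 fold change of 0.59 ± 0.050 (edgeR adjusted p = 8.75e-11), which turned to -0.66 on the leukocyte scale. IRF2 (chromosome 4, 184385702 to 184474558, minus strand) was at 32.3, 34.96 and 32.5 CPM in NC and 81.3, 79.2 and 78.7 CPM in KD. Its 2.40-fold difference, a log2 fold change of 1.26 ± 0.047 (edgeR adjusted p = 5.54e-18), was 0.01 on the leukocyte scale (adjusted p = 0.808). IRF1 shares 22.9% of its exon bases with the antisense gene IRF1-AS1, which was at 1023 to 1199 counts in NC and 1441 to 1631 in KD and changed by a log2 of 0.61 ± 0.058. The reads of those bases cannot be told apart without strand. A further gene on the other strand, ENSG00000283782, shares 486 exon bases of IRF1 and fell by 0.49 on the log2 scale. IRF2 shares none.

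IRF4 had the largest fold of the 9 and the lowest level. This lymphocyte factor (chromosome 6, 391739 to 411443, plus strand) had 8, 14 and 10 counts in NC and 34, 50 and 38 in KD. All 6 numbers are even, and between 67.8% and 70.3% of all counts from 1 to 20 in these libraries were even, against 50.2% to 51.4% of counts over 1000. Whether both mates of a pair were counted is not stated, and if so these few counts stand for fewer fragments still. The lowest KD library was still above the highest NC library. The log2 fold change was 2.04 ± 0.357 (edgeR adjusted p = 1.54e-05), a fold of 4.10 with a 95% interval of 2.53 to 6.66 from the SE. IRF4 was the one factor called higher on the leukocyte scale (0.79 ± 0.368, adjusted p = 0.0452).

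STAT3, the main effector of IL-6 and IL-10 family cytokines (chromosome 17, 42313324 to 42388540, minus strand), was at 58.0, 58.9 and 57.7 CPM in NC and 98.3, 100.3 and 98.1 CPM in KD. Within each group the libraries lay close together and the groups were well apart. The log2 fold change was 0.77 ± 0.041 (edgeR adjusted p = 8.58e-15), 0.58 with library sizes alone, and -0.48 on the leukocyte scale.

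**Figure D2:**
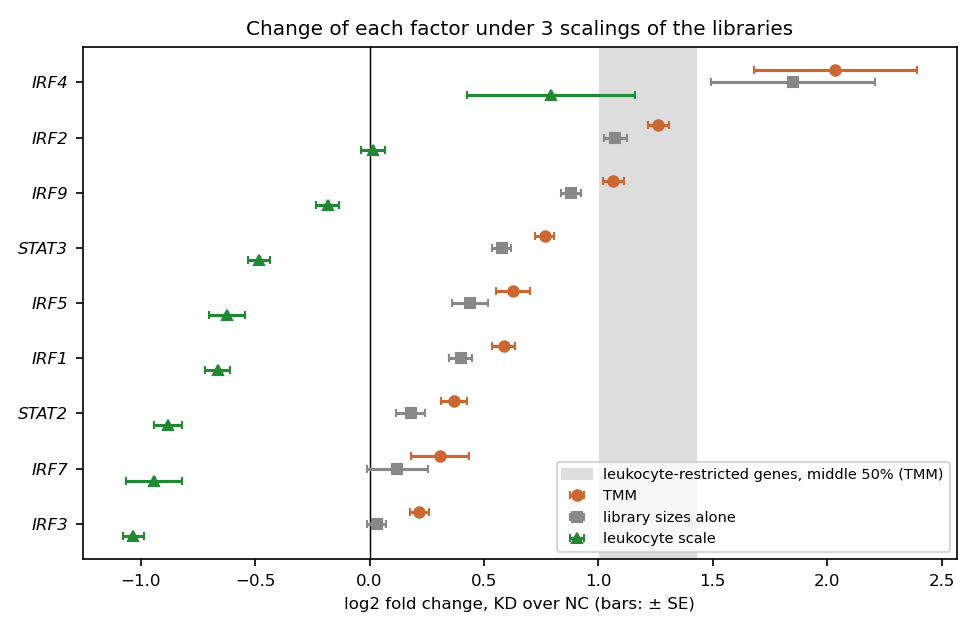
Log2 fold change, KD over NC, of each factor (horizontal axis, bars ± SE) under TMM (circles), library sizes alone (squares) and the leukocyte scale (triangles), with the middle 50% of the 70 leukocyte-restricted genes on TMM as a grey band. The scales shift every factor by nearly the same amount, so their order stays by construction. All 9 lie above 0 on TMM and 7 fall below it on the leukocyte scale, where 84.5% of all tested genes were called lower.

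Set beside the leukocyte-restricted genes on TMM, whose middle 50% had log2 fold changes from 1.005 to 1.43 with a median of 1.20, IRF2 and IRF9 lay within that span, IRF4 above it and the other 6 factors below it. The lowest and the highest of the 70 genes were at 0.14 and 1.78. All 9 factors but IRF4 were thus inside the full range of that list.

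Levels between genes were compared as CPM per kilobase of exon. The lengths take in every exon of the deposited gene model, such as 3794 bases for IRF3, 6471 for IRF9 and 11208 for STAT3. Per kilobase, IRF3 was the most abundant factor in both groups, at 17.0 ± 0.301 in NC and 19.7 ± 0.334 in KD (mean ± SD, n = 3). In KD this place rests on the lengths: without them IRF9 (mean 103 CPM), STAT3 (98.9) and IRF2 (79.7) stood above IRF3 (74.9). Per kilobase again, the other factors followed. IRF9 came next in both, at 7.62 ± 0.344 and 15.9 ± 0.303. In NC the order went on with STAT3, IRF2, IRF1, STAT2, IRF7, IRF5 and IRF4, where the library ranges overlapped between STAT3 and IRF2, between IRF1 and STAT2 and between STAT2 and IRF7. In KD IRF2 (11.9 ± 0.201) stood above STAT3 (8.83 ± 0.109) with separate ranges, and the overlap in the order was between IRF7 and IRF5. IRF4 was last in both groups, at 0.042 ± 0.013 in NC and 0.17 ± 0.036 in KD. The order within a library does not depend on how libraries are scaled against each other, and the exon bases that IRF1, IRF3 and IRF9 share with other genes enter these levels, the shares and the ratios.

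The make-up of the 9 factors within a library is free of that scaling too, but rests on the same exon lengths. IRF3 made 38.3% to 39.6% of their summed per-length level in NC and 28.3% to 29.0% in KD. IRF9 held 16.8% to 18.4% in NC and 22.8% to 23.5% in KD. IRF2 held 11.3% ± 0.474 in NC and 17.2% ± 0.477 in KD. The share of STAT2 was 5.63% to 6.05% in NC and 4.66% to 4.90% in KD. STAT3 held 11.9% ± 0.108 and 12.8% ± 0.148. IRF4, at 0.0963% ± 0.0304 and 0.252% ± 0.0503, stayed the smallest. Library ranges overlapped for IRF1 (5.74% to 5.97% in NC, 5.42% to 5.86% in KD) and IRF5 (3.44% to 3.79% and 3.41% to 3.53%), and for IRF7 they did not (4.64% to 5.65% and 3.21% to 4.50%). A lower share of IRF3 beside higher shares of IRF2 and IRF9 made the widest gaps between the groups, and no test was run on shares.

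**Figure D3:**
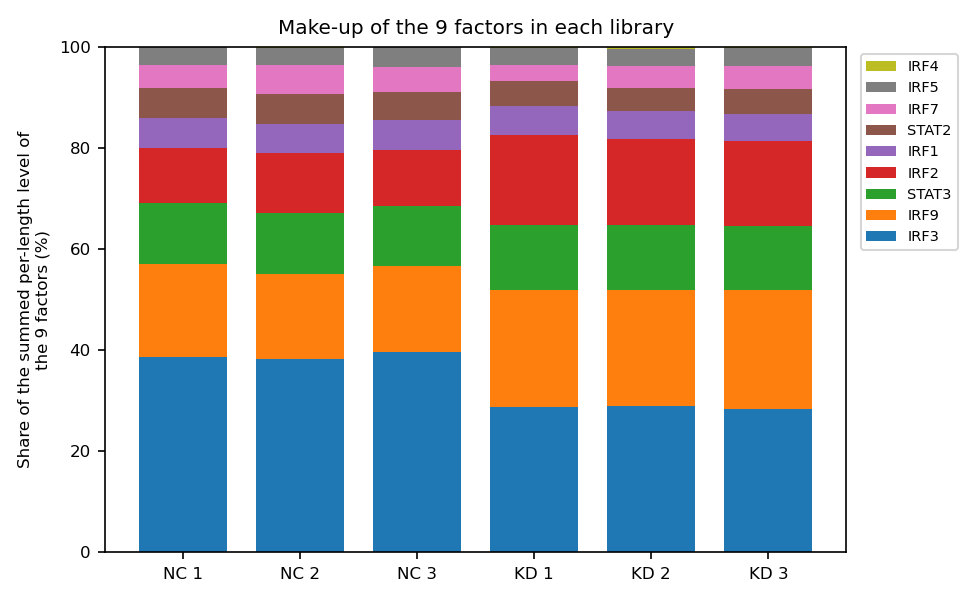
Share of each factor in the summed per-length level of the 9 factors (vertical axis, percent), one stacked bar per library. The IRF3 segment is 38.3% to 39.6% in NC and 28.3% to 29.0% in KD, while the IRF9 and IRF2 segments are wider in KD.

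Ratios of raw counts between 2 factors of one library were chosen by role and compared for 7 pairs, with an exact two-sided permutation test that cannot go below p = 0.1 with 3 samples against 3. IRF1 to IRF2, the activator to the repressor, was 0.971, 0.883 and 0.985 in NC and 0.601, 0.587 and 0.585 in KD. The groups did not overlap, and the log2 ratio, KD minus NC, differed by -0.68 (exact permutation p = 0.1, adjusted p = 0.117 over the 7 ratios). IRF9 to STAT2, the partners in ISGF3, was 2.18, 1.93 and 2.11 in NC and 3.35, 3.41 and 3.34 in KD, a log2 difference of 0.70 (exact permutation p = 0.1). Here too every KD library was above every NC library.

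Of the other 5 ratios, 4 had groups apart. STAT3 to STAT2 rested at 2.39 to 2.52 in NC and 3.11 to 3.34 in KD, a log2 difference of 0.40. IRF9 to STAT3 was 0.811 to 0.894 in NC and 1.02 to 1.07 in KD, a difference of 0.30. IRF1 to IRF9 was 0.605 to 0.662 in NC and 0.437 to 0.481 in KD, a difference of -0.48. IRF5 to IRF4 was 31.3 to 56.3 in NC and 13.6 to 19.0 in KD, where the denominators are the few counts of IRF4. Each of these 4 had an exact permutation p of 0.1. IRF7 to IRF3 overlapped between the groups, with 0.0824, 0.102 and 0.0862 in NC and 0.0768, 0.101 and 0.109 in KD (exact permutation p = 0.8). The share of all gene pairs whose ratios separate the groups was not computed, so the separate groups are not shown to be particular to these factors. Of single genes, 36.7% of all tested had every KD library above every NC library in TMM-scaled CPM.

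**Figure D4:**
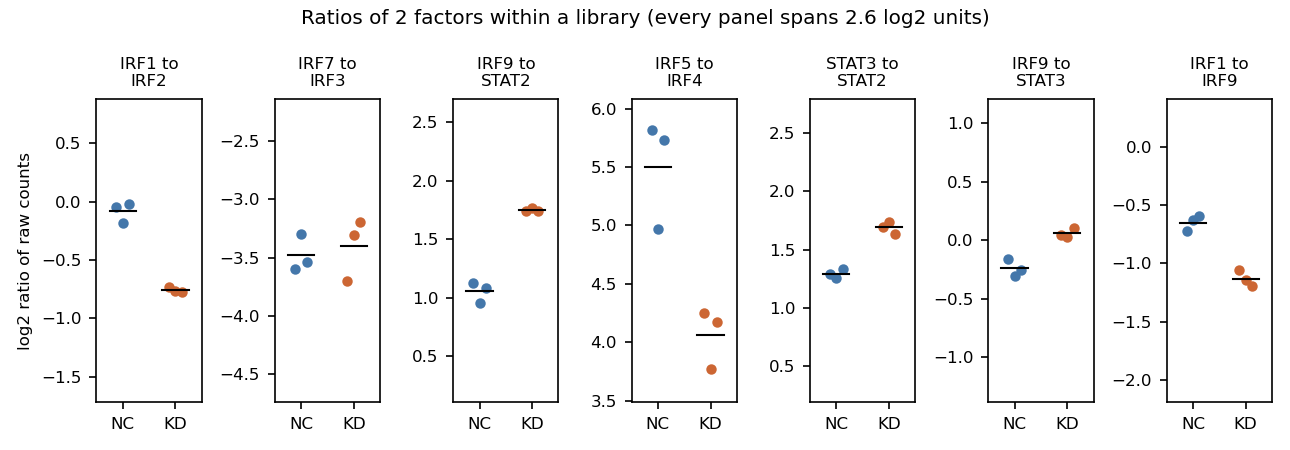
Log2 ratio of the raw counts of 2 factors in each library (points) with the group mean (line), 1 panel for each of the 7 pairs, every panel spanning 2.6 log2 units. NC and KD are apart in every panel but IRF7 to IRF3.

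The genes around these factors came from lists of ligands, receptors, activators, inhibitors and targets. Their counts stand beside the shares of all tested genes, 36.2% higher and 40.3% lower on TMM. With library sizes alone these shares were 28.4% and 47.3%, and on the leukocyte scale 2.98% and 84.5%. A list mostly lower on the leukocyte scale may thus lie near the share of all genes. Interferon transcripts were close to undetected: of 12 ligand genes 9, IFNB1 and IFNG among them, had no count in any library, and the 12 together had 7 counts in all 6 libraries. None passed the filter on low counts. The receptors and JAK kinases had 8 of 9 higher and 1 lower on TMM, against 0 and 8 on the leukocyte scale. The kinase JAK2 (1.27 ± 0.062, and 0.02 on the leukocyte scale) and the receptor chains IFNAR1 (0.79 ± 0.041) and IFNGR1 (0.79 ± 0.042), both at -0.46 on the leukocyte scale, had the smallest p, where brackets here and below hold log2 fold changes ± SE. The single fall was of IFNLR1, the type III interferon receptor, from 189 to 224 counts in NC down to 4 to 8 in KD (-4.78 ± 0.255).

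Activators of IRF3, IRF5 and IRF7 had 16 higher and 3 lower of 20 tested on TMM, and 1 and 14 on the leukocyte scale. TASL, the adaptor that links endosomal Toll-like receptors to IRF5, was higher on both (1.55 ± 0.066, and 0.30). The IRF kinase IKBKE (1.04 ± 0.046) and the adaptor TRAF3 (0.81 ± 0.040) were higher on TMM and lower on the leukocyte scale, at -0.21 and -0.44. The 3 lower genes were MAVS (-0.59 ± 0.054), IRAK4 (-0.22 ± 0.081) and CHUK (-0.16 ± 0.045). Among 8 tested partners and co-repressors 5 were higher and 2 lower, and 1 and 5 on the leukocyte scale. The 5 were BATF, SPI1, IRF2BPL, NFATC1 and NFATC2. BATF, which pairs with IRF4 on DNA, rose (1.61 ± 0.088, and 0.36 on the leukocyte scale), while its relative BATF3 (-1.51 ± 0.075) and the IRF2 co-repressor IRF2BP1 (-0.66 ± 0.142) fell on both scales. SPI1, the myeloid factor that recruits IRF4 to DNA, was at 1.26 ± 0.054 and at 0.005 on the leukocyte scale. It is itself one of the leukocyte-restricted genes that set this scale, so its value there is partly built in.

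Genes of the STAT3 arm were counted as ligands, receptor chains and targets. Of 6 tested ligands 5 were higher and 0 lower on TMM (3 and 1 on the leukocyte scale, the fall being that of IL11): LIF had 917 to 1065 counts in NC and 2719 to 2951 in KD (1.68 ± 0.050), beside CSF3 (2.11 ± 0.298), OSM (2.16 ± 0.407), IL6 (1.72 ± 0.295) and IL10 (1.71 ± 0.542). These last 4 came from few counts (at most 76 in a library), and IL6 and IL10 were not called on the leukocyte scale. Of 8 receptor chains 4 were higher and 1 lower on TMM, 1 and 7 on the leukocyte scale. IL6R (0.84 ± 0.040), IL10RA, OSMR (1.58 ± 0.114) and LEPR (0.30 ± 0.096) were the 4, of which OSMR was higher on the leukocyte scale too, and LIFR fell from 416 to 422 counts to 20 to 32 (-3.85 ± 0.157). All 16 STAT3 target genes were higher on TMM, while SOCS3 and FOS were higher and 9 lower when scaled to leukocyte genes. HIF1A (1.35 ± 0.041), FOSL2 (1.31 ± 0.045) and CCND1 (1.35 ± 0.048) had the smallest p among them and were not called on the leukocyte scale.

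Inhibitors of JAK-STAT signalling had 8 higher and 2 lower of 13 tested on TMM, 5 and 3 with library sizes alone, and 1 and 11 on the leukocyte scale. The 11 are near the 84.5% of all genes that were lower on that scale. SOCS3, the feedback inhibitor that STAT3 induces and a gene of the STAT3 target list too, was higher on each scale (1.51 ± 0.065, and 0.26 on the leukocyte scale). The phosphatases PTPN1 (1.02 ± 0.040) and PTPN6 (0.88 ± 0.042) were higher on TMM and lower, at -0.23 and -0.37, on the leukocyte scale. The falls were of SOCS2, from 213 to 263 counts to 4 to 10 (-5.07 ± 0.260), and of USP18, an ISGF3-induced brake on the interferon receptor (-0.32 ± 0.061).

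The targets of ISGF3 had calls in both directions on TMM. Of 29 tested, 17 were higher and 8 lower on TMM, 12 and 12 with library sizes alone, and 0 and 28 on the leukocyte scale, with median log2 fold changes of 0.25, 0.07 and -0.997, where 84.5% of all genes were lower on the leukocyte scale and 36.2% were higher and 40.3% lower on TMM. The 8 lower on TMM were RSAD2 (-0.80 ± 0.047), HERC5 (-0.80 ± 0.067), MX1 (-0.53 ± 0.040), IFIT1, IFIT2, IFIT5, OASL and IFITM1. Relatives of these antiviral genes were among the 17 higher, such as OAS1 (0.38), OAS2 (0.46) and IFIT3 (0.26), examples chosen after their values were seen. SAMD9L (1.18 ± 0.040), DTX3L (0.89 ± 0.046) and DDX60 (1.02 ± 0.055) had the smallest p and were at -0.07, -0.36 and -0.23 on the leukocyte scale. The targets of IRF1 and of gamma interferon had 14 higher and 3 lower of 21 tested, 1 and 17 on the leukocyte scale, and 5 lower both with library sizes alone and without NC replicate 3. The adhesion molecule ICAM1 (1.52 ± 0.045) was higher on each scale, while the immunoproteasome subunit PSMB8 (1.19 ± 0.044) and the GTPase GBP2 (1.13 ± 0.052) were not called on the leukocyte scale. The 3 lower genes were CXCL10 (-1.35 ± 0.155), CXCL11 (-0.58 ± 0.116), both chemokines, and the complement inhibitor SERPING1 (-1.44 ± 0.090). Cytokine genes linked to IRF5 had 5 higher and 2 lower of 7 on TMM, 4 and 2 on the leukocyte scale. IL23A (3.23 ± 0.053), TNF (1.81 ± 0.084), IL12B (2.78 ± 0.214) and IL1B, which had a mean of 2457 CPM in NC and 6959 in KD, were higher on each scale, and IL6, also a STAT3 ligand, was the fifth on TMM. IL12A (-1.11 ± 0.224) and CCL5 (-0.39 ± 0.041) were lower on each.

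**Figure D5:**
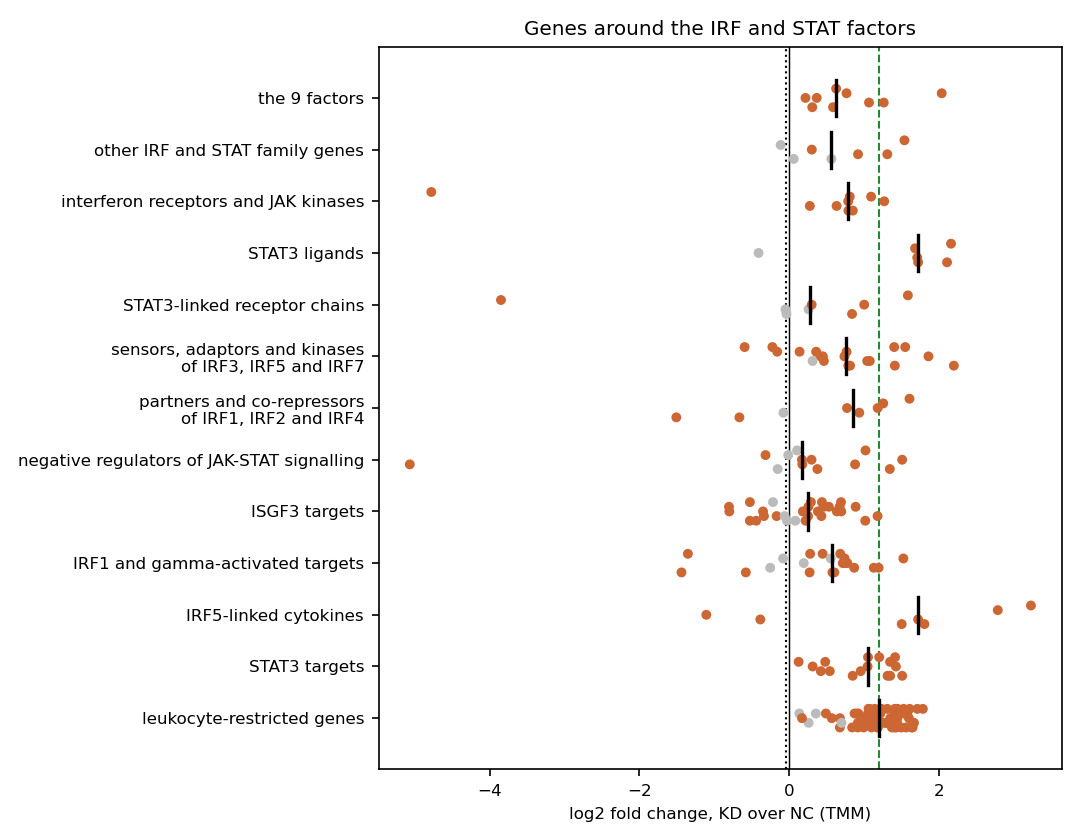
Log2 fold change on TMM, KD over NC (horizontal axis), of each tested gene in the lists, with genes past an adjusted p of 0.05 in orange, others in grey, and the list median as a black bar. The dotted line is the median of all tested genes (-0.05) and the dashed line that of the leukocyte-restricted genes (1.20); the ISGF3 targets lie on both sides of 0 and all 16 STAT3 targets lie to its right, whereas on the leukocyte scale 0 of the 29 and 2 of the 16 are higher.

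Of the other genes of both families, those with the smallest p were STAT5A, STAT6 and IRF8. STAT5A (1.54 ± 0.058) was higher on TMM and on the leukocyte scale, IRF8 (1.31 ± 0.057) was at 0.06 on the leukocyte scale, and STAT6 (0.92 ± 0.040) was at -0.33 there. The protein-coding genes whose centred log2 CPM over the 6 libraries lay nearest to a factor, by Euclidean distance among 14509 genes, were UTRN and UBE2Q1 for IRF1, PCDHGC3 and NIBAN2 for IRF2, FH and KLC4 for IRF3, and OVCH1 and F5 for IRF4. For IRF5 they were MFSD1 and SLC4A4, for IRF7 FAM174C and ATP5F1D, for IRF9 LAIR1 and DPF3, for STAT2 NUDT5 and HCFC2, and for STAT3 AJM1 and MEIS2. The nearest gene was at a distance of 0.017 log2 units for STAT3 and 0.32 for IRF4.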

How the data were processed

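Libraries were made for DNBSEQ-T7, per the labels' protocols. Reads were trimmed with fastp 0.23.0, and GRCh38 was the genome build, as the submitters' processing notes say. For the aligner, counter, annotation and strand setting, the sources used here give nothing. Raw counts per gene were deposited for 6 libraries, grouped as labelled, with exon coordinates and lengths. The 9 genes and all lists were chosen with earlier results of these data known.

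The test was that of edgeR 4.0.16 under R 4.3.3 (quasi-likelihood, robust, filterByExpr, TMM), two-sided, adjusted by Benjamini-Hochberg over 21905 genes at 0.05. Each SE comes from the fold change and its F statistic. The edgeR test with TMM was also run on simulated counts in which few genes changed, equally in both directions. That setting differs from these data, where most genes were called, and cannot probe the choice of scale. Per-length levels divide TMM-scaled CPM by exon kilobases. Replicates of a group were not identical (chi-square per degree of freedom 3.11 to 5.96). Intervals and precision cover counting and replicate error only.

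Named genes are the 9 factors, up to 3 genes per list with the smallest p, genes that a count of 5 or fewer turns on, genes sharing exons with a factor, and the 2 nearest genes by pattern (prior count 2). One result for another gene of these families is not reported here. Motif searches used the RefSeq promoter table. Protein-coding genes came from a RefSeq table that matched 19149 symbols. Alternatives were RLE factors, library sizes alone, the leukocyte scale, no filter, a mean of 1 CPM, counts divided by 2, DESeq2 1.42.0, limma-voom (limma 3.58.1), the replicate number as a block, each library left out in turn, a stricter adjusted p (0.01) and a minimum of 1.5-fold. Python 3.11.15 with pandas 2.3.3, scipy 1.17.1 and matplotlib 3.10.9 made the summaries.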

Additional observations from a re-analysis of the deposited data

How the results depend on the processing

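The scaling of the libraries decided the direction. On the leukocyte scale 1 of the 9 factors was higher and 7 were lower, in place of 9 and 0, and over all genes 652 were higher there in place of 7934 and 18511 lower in place of 8824. The log2 fold changes that turned sign there were those of IRF1 (-0.66), IRF3 (-1.03), IRF5 (-0.62), IRF7 (-0.94), IRF9 (-0.18), STAT2 (-0.88) and STAT3 (-0.48). With library sizes alone IRF3 (0.03) and IRF7 (0.12) lost their calls. Under RLE factors, no filter, counts divided by 2, DESeq2, limma-voom and the replicate block all 9 calls held, and leaving out 1 library gave 8 to 9 higher and 0 lower, IRF7 being the one that was lost. At an adjusted p of 0.01 there were 8, and with a 1.5-fold minimum 6. The shares of all genes at these thresholds are not given, so these counts cannot be set against them. With a mean of at least 1 CPM IRF4 was not tested. Apart from library sizes alone and the leukocyte scale, the log2 fold change of IRF9 ran from 1.04 to 1.10 and that of IRF2 from 1.24 to 1.29. With library sizes alone IRF9 was at 0.88 and IRF2 at 1.07, and on the leukocyte scale they were at -0.18 and 0.01. Of the gene lists, STAT3 ligands had 1 higher with a mean of at least 1 CPM in place of 5. CSF3, OSM, IL6 and IL10 fell below that mean and were not tested there. Receptor chains had 2 lower with library sizes alone in place of 1. The replicate numbers did not pair the libraries (correlations of same-numbered libraries from -0.014 to 0.015), and in the replicate block 9 factors were higher.

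Leaving out 1 library moved the difference of log2 ratios from -0.73 to -0.65 for IRF1 to IRF2, 0.65 to 0.74 for IRF9 to STAT2, 0.37 to 0.42 for STAT3 to STAT2, 0.27 to 0.34 for IRF9 to STAT3, -0.52 to -0.45 for IRF1 to IRF9, -1.71 to -1.29 for IRF5 to IRF4 and -0.027 to 0.23 for IRF7 to IRF3, the last turning sign without KD replicate 3 (-0.027). Per-length levels shifted with both other scales, but not their order within a library. Depth limits IRF4, with at most 50 counts in a library, and the interferon genes.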
